A study of Mus musculus with 16 samples.

Results

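A set of 10 genes widely used to describe haematopoietic stem and progenitor cells was followed in bone marrow of mice without and with the transcription factor NRF2, after 5-fluorouracil and without it. They are the receptor genes Kit and Flt3, the surface protein genes Cd34 and Ly6a, and the transcription factor genes Gata2, Meis1, Hlf, Mecom, Hoxa9 and Myb. The 10 genes were taken by symbol from the 57132 genes of the count table, and all 10 were among the 19152 genes left after a filter on low counts. Kit (ENSMUSG00000005672.13) and Flt3 (ENSMUSG00000042817.16) lie on chromosome 5, Gata2 (ENSMUSG00000015053.15) and Hoxa9 (ENSMUSG00000038227.16) on chromosome 6, and Meis1 (ENSMUSG00000020160.19) and Hlf (ENSMUSG00000003949.17) on chromosome 11. Cd34 (ENSMUSG00000016494.10) lies on chromosome 1, Mecom (ENSMUSG00000027684.17) on 3, Myb (ENSMUSG00000019982.16) on 10 and Ly6a (ENSMUSG00000075602.11) on 15.

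Whole bone marrow RNA was sequenced in 16 libraries, 2 for each of 8 groups. The groups were Nrf2-/- marrow (KO) and wild type marrow (WT), each given BMX-001 with 5-FU, 5-FU alone, BMX-001 alone or PBS as the control. The genotype label is CB57BL/6 for WT and the same strain with the Nrf2-/- knockout for KO. 5-FU (5-fluorouracil) is a chemotherapy drug that blocks the making of thymidylate for DNA, and BMX-001 is a redox-active manganese porphyrin. Mice received BMX-001 (0.5 mg/kg) starting 24 h ahead of the chemotherapy and again at 3-day intervals. The 5-FU dose was 20 mg/kg, repeated on day 7, with collection of marrow on day 10. WT animals were C57BL/6 males 8 to 10 weeks old. KO animals were bred from Nrf2+/- parents and carry an inactive form of the gene, and the sources used here give neither their age nor their sex. The labels do not say that the 2 libraries of a group come from different mice, so p-values measure the spread between libraries, which may be technical. Each gene is also measured in whole marrow, where fewer cells of a type and less RNA per cell cannot be told apart.

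Blood formation rests on a small pool of stem cells that make multipotent and then lineage-restricted progenitors. KIT, the receptor of stem cell factor, keeps stem cells, early progenitors and mast cells alive, and FLT3, the receptor of FLT3 ligand, marks multipotent and lymphoid-primed progenitors and is needed for dendritic cells. CD34 and SCA-1 (the Ly6a product) are surface proteins by which mouse stem and progenitor cells are sorted, and both are also found on endothelial cells. GATA2, MEIS1, HOXA9, HLF and EVI1 (the main product of Mecom) act in stem cells and early progenitors, whereas MYB is needed in dividing progenitors of most lineages. Kit, Gata2 and Cd34 are also known from mast cells, and Flt3 from dendritic cells.

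Promoters of 9 of the 10 genes were in the RefSeq table for the build GRCm38.p6, as windows of 250 bases before to 50 bases after the start, and Ly6a had no entry. The windows were searched on both strands for 5 short motifs. Those of Myb, Flt3 and Cd34 are shown, with the matches found in capitals. Myb, Flt3 and Cd34 are 3 of the 4 genes called in any comparison of the 15 libraries without KO BMX-001 replicate 1. The Myb window (chr10:21160935-21161234, minus strand) held none of the 5 motifs, the Flt3 window (chr5:147400440-147400739, minus strand) held the MYB core motif, and the Cd34 window (chr1:194938571-194938870, plus strand) held the antioxidant response element core that NRF2 binds. All are written 5′ to 3′ along the gene.
Myb: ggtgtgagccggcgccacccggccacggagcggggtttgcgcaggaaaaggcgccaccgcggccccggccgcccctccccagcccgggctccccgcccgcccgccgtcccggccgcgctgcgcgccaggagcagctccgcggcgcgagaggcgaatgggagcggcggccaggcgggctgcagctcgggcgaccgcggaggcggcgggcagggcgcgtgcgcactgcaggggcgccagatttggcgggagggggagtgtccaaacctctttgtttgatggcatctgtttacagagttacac
Flt3: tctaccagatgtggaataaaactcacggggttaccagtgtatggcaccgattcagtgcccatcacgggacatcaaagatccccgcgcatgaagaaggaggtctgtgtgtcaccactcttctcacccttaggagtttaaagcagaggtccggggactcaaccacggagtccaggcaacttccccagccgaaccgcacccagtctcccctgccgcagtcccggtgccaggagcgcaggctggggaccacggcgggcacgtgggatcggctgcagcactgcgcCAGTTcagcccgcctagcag
Cd34: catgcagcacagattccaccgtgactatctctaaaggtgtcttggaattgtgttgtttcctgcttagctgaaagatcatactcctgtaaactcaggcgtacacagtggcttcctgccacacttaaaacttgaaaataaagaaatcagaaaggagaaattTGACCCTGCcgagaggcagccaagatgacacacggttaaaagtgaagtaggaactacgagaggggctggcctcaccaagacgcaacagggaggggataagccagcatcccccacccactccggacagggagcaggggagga

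In Cd34 the capitals mark TGACCCTGC, which fits TGACNNNGC and begins 91 bases before the start, at position -91. That pattern was found in 12.5% of all 27025 promoters of the table and in 1 of the 9 listed here. In Flt3 the capitals mark CAGTT, the reverse complement of the MYB core AACTG, which begins at position 30 after the start. AACTG was found in 44.8% of all promoters and in 1 of these 9. The GATA motif AGATAA (11.4% of all promoters), the MEIS motif TGACAG (19.3%) and the HLF motif TTACGTAA (0.107%) were found in 0 of the 9. The 2 matches lie in different promoters, and a match describes letters and not binding.

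The targeted gene separated the genotypes in every library. Nfe2l2, which encodes NRF2, had 8.97 ± 3.32 CPM (a gene's count scaled to library size with TMM factors) over the KO libraries, against 116 ± 6.17 CPM over the WT libraries (SD, n = 8 each), with a highest KO value of 16.7 CPM and a lowest WT value of 102 CPM. Library totals ran from 27305707 to 39909188 counts. KO BMX-001 replicate 1 had the lowest total and stood apart from the other 15 libraries, at 111.9 on the first principal component (30.9% of the variance) with the others between -31 and 7.6. Malat1, a nuclear RNA, stood at 12210 CPM there and at 2549 to 5345 CPM elsewhere, beside a summed granulocyte-precursor signal of 613 CPM there and 2038 to 3282 CPM elsewhere. This library lay below all other 15 libraries for 5 of the 10 genes, namely Kit, Flt3, Cd34, Ly6a and Hlf, and within their range for the other 5. The share of all genes that lay below in it was not counted, so the 5 cannot be read as particular to this set. Because this library stood apart, each result is given from all 16 libraries and from the 15 without it. A gene was called at an adjusted p under 0.05 (edgeR's quasi-likelihood test, Benjamini-Hochberg adjustment over all genes tested).

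Levels of the 10 genes spanned a wide range. Per kilobase of exon, Myb stood highest at 21.8 ± 2.56 CPM per kb (SD, n = 16), above every other member in all 16 libraries. Ly6a at 9.91 ± 3.02 and Kit at 9.82 ± 1.90 CPM per kb came next and did not differ beyond their spread, with Ly6a above Kit in 7 of 16 libraries. Cd34 at 4.67 ± 0.942, Gata2 at 4.03 ± 0.396 and Flt3 at 3.93 ± 0.679 CPM per kb lay close together, with Cd34 above Gata2 in 14 libraries and Gata2 above Flt3 in 9. Hlf at 1.11 ± 0.190 and Meis1 at 0.974 ± 0.162 CPM per kb followed, with Hlf above Meis1 in 13 libraries. Hoxa9 at 0.346 ± 0.0616 and Mecom at 0.0655 ± 0.0157 CPM per kb were lowest, in that order in all 16 libraries. Lengths come from the GRCm38 gene models, whose exons may differ from those the authors counted.

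Counting error followed the count. Myb rested on 5109 to 9004 counts per library, a counting error of 1.05% at the highest count, and Kit on 1093 to 3956 counts. Mecom rested on 17 to 42 counts and Hoxa9 on 50 to 88 counts, so that counting alone gave an error of 15.4% to 24.3% for Mecom and 10.7% to 14.1% for Hoxa9. Between the libraries of a group, outside KO BMX-001, the median difference on the log2 scale was 0.03 for Myb, 0.07 for Cd34 and 0.10 for Kit. It did not follow the level in every gene. It was 0.34 for Mecom, the lowest member, and 0.08 for Hoxa9. For Ly6a it was 0.46, with a largest difference within a group of 1.29. Reads of Ly6a may be shared with related genes of its cluster, which was not tested. Exons of Cd34, Meis1, Mecom, Hoxa9 and Myb overlap other genes in the GRCm38 models, and no source used here says whether counting used strand. The overlapping genes held few counts, at most 69 in a library for Gm26577 (over Myb) and 27 for Gm37818 (over Meis1).

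**Figure D1:**
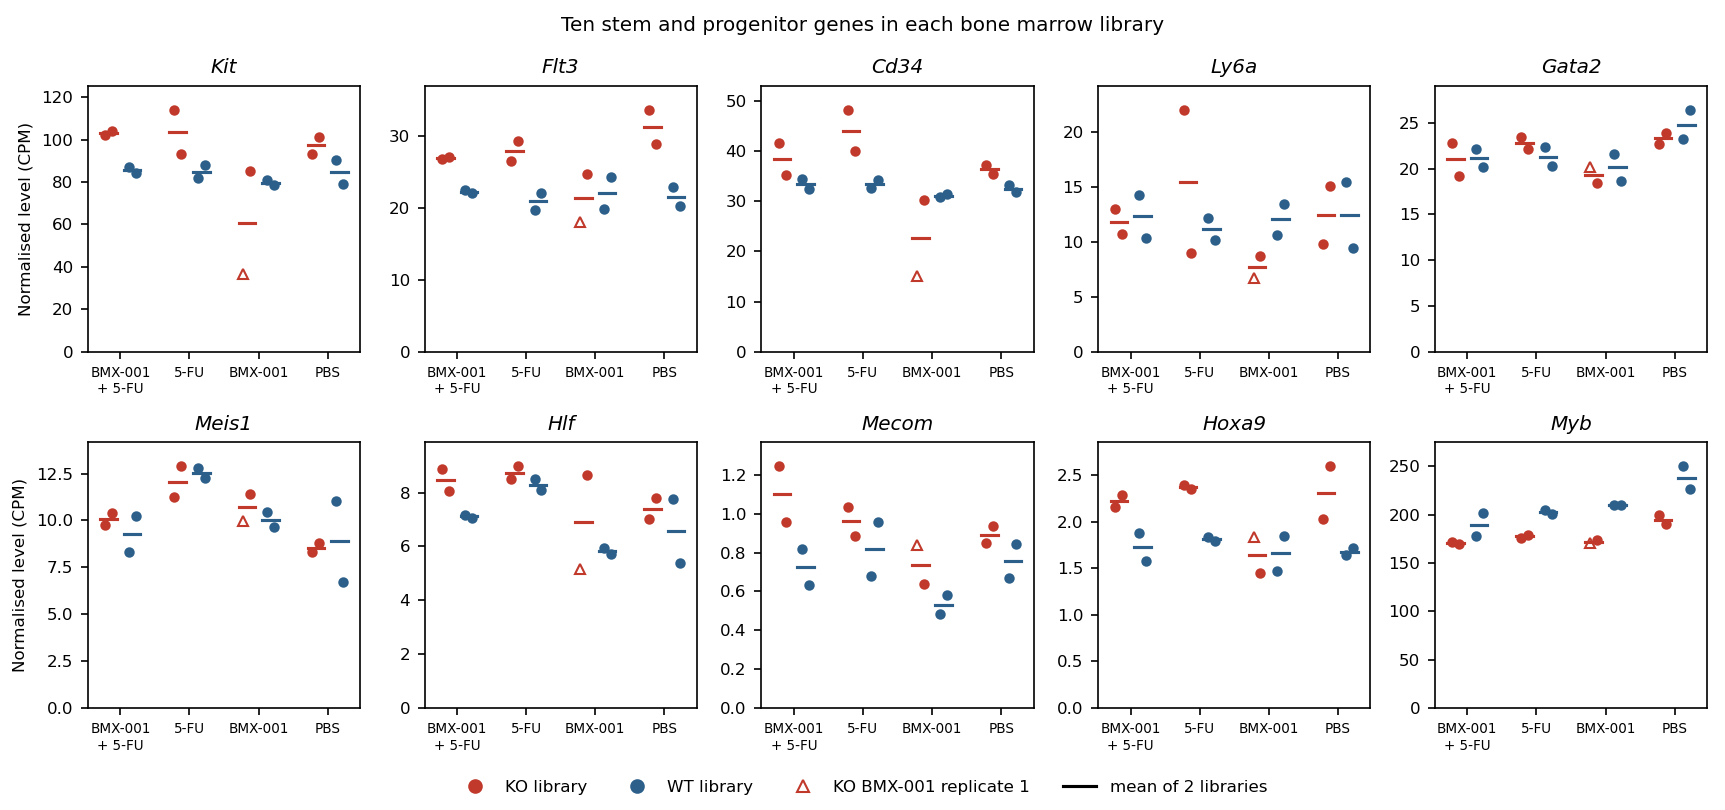
Normalised level (CPM, linear axis from 0) of each of the 10 genes in each of 16 libraries, with KO in red left of WT in blue within each treatment, a bar at the mean of 2 libraries and an open triangle for KO BMX-001 replicate 1. Flt3 and Kit lie higher and Myb lower in KO than in WT in PBS, 5-FU and BMX-001 with 5-FU, and the triangle lies below all other libraries for Kit, Flt3, Cd34, Ly6a and Hlf.

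Loss of NRF2 was compared with wild type as the mean over the 4 treatments, and the receptor gene Flt3 and the progenitor factor gene Myb differed in opposite directions. Without the deviating library Flt3 rose by 0.35 ± 0.06 (log2, SE, adjusted p = 0.0102) and Myb fell by 0.23 ± 0.04 (adjusted p = 0.013), and Kit rose by 0.21 ± 0.05 (adjusted p = 0.0437). These 3 of 10 genes stand beside 1.39% of all genes called in that fit, 122 higher and 151 lower of 19694. In all 16 libraries 0 of the 10 genes were called, beside 0.178% of all genes (34 of 19152), although 4 had an unadjusted p under 0.05, beside 12.7% of all genes. There the log2 fold change was 0.29 ± 0.08 for Flt3 (adjusted p = 0.138), for Myb -0.23 ± 0.05 (adjusted p = 0.0783) and for Kit 0.09 ± 0.13 (adjusted p = 0.785). DESeq2 called 2 of the 10 on all 16 libraries, Flt3 (adjusted p = 0.0377) and Myb (adjusted p = 0.000258), beside 2.16% of all genes.

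Flt3 had 33.6 and 28.9 CPM in KO with PBS, against 22.9 and 20.3 CPM in WT with PBS. With 5-FU it had 26.5 and 29.3 CPM in KO, against 19.7 and 22.1 CPM in WT, and with BMX-001 and 5-FU 26.9 and 27.1 CPM in KO, against 22.5 and 22.1 CPM in WT. In these 3 treatments every KO library lay above every WT library. With BMX-001 alone it had 18.0 and 24.7 CPM in KO, against 19.9 and 24.3 CPM in WT. There the groups overlapped, with 1 KO library below both WT libraries and the other above both. The mean was 28.1 ± 2.87 CPM over the 7 other KO libraries and 21.7 ± 1.62 CPM over the 8 WT libraries (SD), and no WT library reached the lowest of those KO values. With KO BMX-001 replicate 1 and each library outside that group left out in turn, Flt3 was called in 14 of 14 fits, with adjusted p from 0.00571 to 0.0416 and log2 fold changes from 0.31 to 0.38.

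Myb, whose product keeps progenitors dividing and immature, ran the other way. With PBS it had 199 and 189.9 CPM in KO, against 249.9 and 227 CPM in WT. With BMX-001 it had 171 and 173 CPM in KO, against 209.9 and 209.5 CPM in WT. The groups lay apart in both treatments, and the 2 KO libraries with BMX-001, the deviating one included, lay close together. With 5-FU Myb had 176 and 179 CPM in KO, against 205 and 201 CPM in WT, and with both drugs 171 and 169 CPM in KO, against 178 and 201 CPM in WT. Every KO library therefore lay below every WT library of its treatment in all 4 treatments, as did 0.647% of the genes tested (124 of 19152), and Myb was the 1 member to do so (in PBS, 5-FU and both drugs alone, 1.21% of genes did). The opposite order in all 4 treatments held for 0 members and 0.595% of genes. Over all libraries Myb averaged 179 ± 10.7 CPM (SD) in the 8 KO libraries, against 210.2 ± 21.0 CPM in the 8 WT libraries. It too was called in 14 of 14 fits with a further library left out, with adjusted p from 0.00847 to 0.0464.

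Kit had 93.4 and 101.2 CPM in KO with PBS, against 90.5 and 79.0 CPM in WT with PBS. With 5-FU it had 114 and 93.4 CPM in KO, against 81.9 and 87.9 CPM in WT, and with both drugs 102 and 104 CPM in KO, against 87.2 and 84.2 CPM in WT. Kit thus lay higher in KO without overlap in these 3 treatments. With BMX-001 alone it had 36.6 and 85.0 CPM in KO, against 81.0 and 78.4 CPM in WT, so 1 KO library lay far below and the other above both WT libraries. The call of Kit without the deviating library was kept in 3 of 14 fits with a further library left out (adjusted p from 0.00965 to 0.129). Its value was -0.10 when KO BMX-001 replicate 2 was left out and the deviating library stood by itself in that group.

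Flt3, Kit, Cd34 and Hoxa9 were the 4 members above WT without overlap in PBS, 5-FU and BMX-001 with 5-FU, as were 1.67% of the genes tested (319 of 19152). Hoxa9, a homeobox gene of stem and early myeloid progenitor cells, had 2.03 and 2.59 CPM in KO with PBS, against 1.64 and 1.71 CPM in WT. With 5-FU it had 2.39 and 2.36 CPM in KO, against 1.83 and 1.79 CPM in WT, and with both drugs 2.16 and 2.29 CPM in KO, against 1.88 and 1.58 CPM in WT. With BMX-001 alone the order was mixed, at 1.84 and 1.44 CPM in KO, against 1.47 and 1.85 CPM in WT. Its log2 fold change over the 4 treatments was 0.30 ± 0.12 (adjusted p = 0.328) from all libraries and 0.25 ± 0.13 (adjusted p = 0.41) from 15.

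The other members were not called between genotypes in either fit. Cd34 had a fold change of 0.08 ± 0.11 on the log2 scale (adjusted p = 0.785) from 16 libraries and 0.18 ± 0.05 (adjusted p = 0.119) from 15. Hlf, which encodes a bZIP factor of stem cells, had 0.19 ± 0.11 (adjusted p = 0.496) and 0.27 ± 0.09 (adjusted p = 0.152). Mecom had 0.38 ± 0.16 (adjusted p = 0.351) and 0.33 ± 0.18 (adjusted p = 0.441), with 0.922 ± 0.175 CPM over 8 KO libraries, against 0.707 ± 0.155 CPM over 8 WT libraries (SD). Gata2 averaged 21.6 ± 2.07 CPM in KO, against 21.9 ± 2.34 CPM in WT, Meis1 10.3 ± 1.49 CPM in KO, against 10.2 ± 2.00 CPM in WT, and Ly6a 11.9 ± 4.85 CPM in KO, against a WT level of 12.0 ± 2.19 CPM (SD over 8 libraries a genotype). For Gata2, Meis1 and Ly6a the difference of the means did not exceed their spread. The SE of the log2 fold change from 16 libraries was 0.06 for Gata2, 0.10 for Meis1 and 0.19 for Ly6a.

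**Figure D2:**
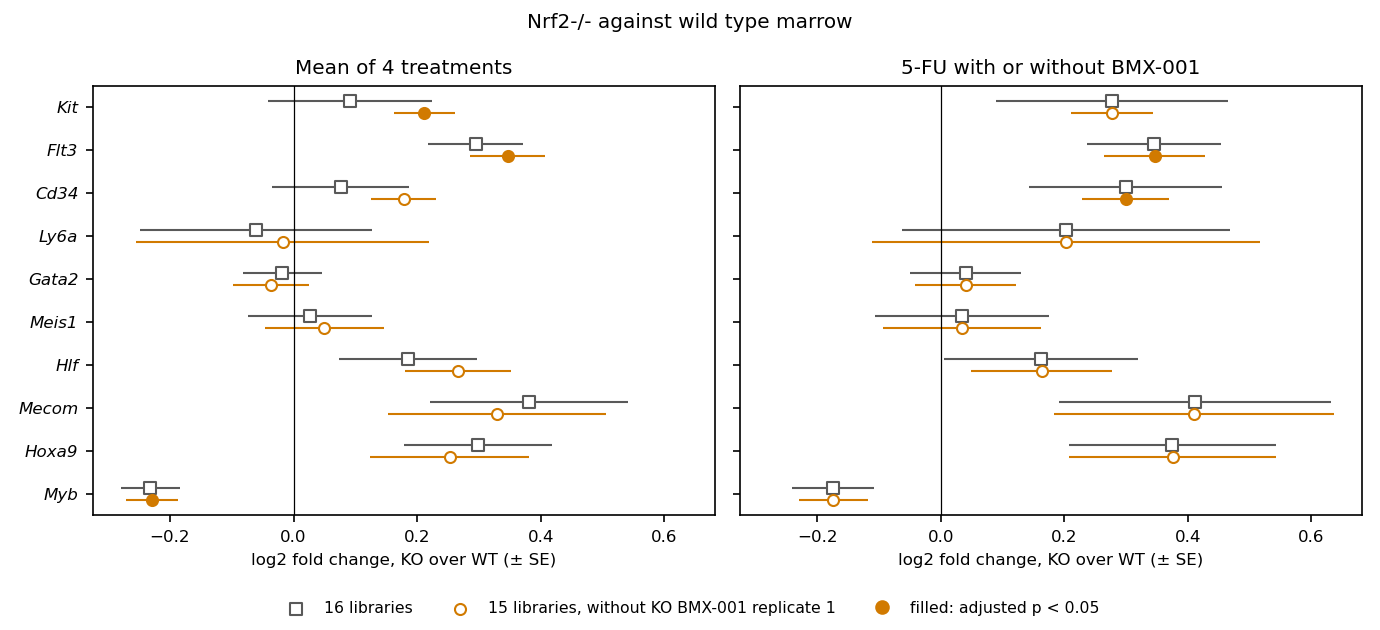
Log2 fold change of KO over WT for each gene, with bars of 1 SE, as the mean of 4 treatments on the left and over the 5-FU treatments on the right, from 16 libraries (grey squares) and from the 15 without KO BMX-001 replicate 1 (orange circles, filled where the adjusted p was under 0.05). Flt3 stands at 0.35 and Myb at -0.23 in the 15-library fit on the left, both filled, and Cd34 at 0.30 and Flt3 at 0.35 are filled on the right.

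The difference between genotypes was also tested in PBS alone and in the 2 treatments with 5-FU. In PBS 0 members were called in either fit, beside 0.0261% of all genes in 16 libraries and 0.102% in 15. There 2 members had an unadjusted p under 0.05 in 16 libraries, beside 4.44% of all genes, and DESeq2 called 0, beside 0.178%. Flt3 had the largest log2 fold change of the receptors there, 0.54 ± 0.15 (adjusted p = 0.86 in 16 libraries and 0.103 in 15), and Myb had -0.29 ± 0.09 (adjusted p = 1 in 16 libraries and 0.246 in 15). In the 5-FU treatments 0 members were called in 16 libraries, beside 0.0992% of all genes, with 3 at an unadjusted p under 0.05 (7.05% of all genes) and 0 called by DESeq2 (1.22%). In 15 libraries Flt3 at 0.35 ± 0.08 (adjusted p = 0.0479) and Cd34 at 0.30 ± 0.07 (adjusted p = 0.0492) were called, beside 1.11% of all genes, and Kit at 0.28 ± 0.07 (adjusted p = 0.052) was not. With a further library left out Cd34 was called in 4 and Flt3 in 7 of 15 fits. The 5-FU libraries are the same in both fits, which gave the same fold changes to 2 decimals and different SE.

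Markers of other cell types were summed beside these results, and their part in them was not tested. The 10 dendritic cell markers summed to 425 to 519 CPM in the 7 other KO libraries and to 420.03 to 468 CPM in WT, and in the 15-library fit 2 of them rose in KO, Ccr9 by 0.39 ± 0.08 (adjusted p = 0.0283) and Runx2 by 0.27 ± 0.05 (adjusted p = 0.0141). Both are known from plasmacytoid dendritic cells, which carry FLT3. The 10 pro-B and pre-B cell markers summed to 419.8 to 718 CPM in those KO libraries and to 639 to 1026 CPM in WT, all 10 with a negative log2 fold change (median -0.44, against 0.00 over all genes to 2 decimals) and 1 of them, Cd79a, called lower (-0.34 ± 0.07, adjusted p = 0.0496). Erythroid markers summed to 46440 to 74960 CPM in the 7 KO libraries and to 40107 to 73532 CPM in WT, with Tfrc (-0.28 ± 0.06, adjusted p = 0.0266) and Epb42 (-0.22 ± 0.05, adjusted p = 0.032) lower of 10. Mast cell and basophil markers summed to 384 to 555 CPM in KO and 396 to 524 CPM in WT, and of the 8 markers 1 was called, Fcer1a (0.47 ± 0.10, adjusted p = 0.0266), while 3 had values above 0 and 5 below 0 (median -0.05). Of 10 cell-cycle genes 0 were called and 10 had values below 0 (median -0.07), and their sum was 5788 to 7744 CPM in the 7 KO libraries and 6987 to 7531 CPM in WT. Granulocyte-precursor markers summed to 2110 to 3182 CPM in the 7 KO libraries and 2038 to 3282 CPM in WT. Of 10 T and NK cell markers 1 rose, Cd4 (0.48 ± 0.09, adjusted p = 0.019), and 0 were called of the endothelial (8), stromal and bone (10), megakaryocyte (8), granulocyte-precursor (6) and interferon response (10) lists.

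The effect of 5-FU was read as the 4 libraries given 5-FU, with or without BMX-001, against the 4 without it in each genotype. Cd34, the surface sialomucin of progenitors and endothelium, was the 1 member called, and in KO. Without the deviating library it rose by 0.31 ± 0.08 (log2, SE, adjusted p = 0.0374) in KO, beside 3.49% of all genes called, and by 0.19 ± 0.05 (adjusted p = 0.0331) as the mean of the genotypes, beside 8.16%. In 16 libraries 0 members were called in KO, beside 1.9% of all genes, and 0 as the mean of the genotypes, beside 2.95%. At an unadjusted p under 0.05 there were 2 members in KO (17.2% of all genes) and 3 in the mean of the genotypes (18.1%), and DESeq2 called Cd34 in KO (log2 fold change 0.51, adjusted p = 0.0416, beside 6.37% of all genes) and 0 members in the mean, beside 7.97%. With all libraries edgeR gave Cd34 0.52 ± 0.16 in KO (adjusted p = 0.133), so that leaving out 1 library moved the value by more than 1.5 times.

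Cd34 had 41.7 and 35.3 CPM in KO with BMX-001 and 5-FU and 48.2 and 40.1 CPM with 5-FU, against 15.2 and 30.2 CPM with BMX-001 and 37.3 and 35.5 CPM with PBS. The lowest of the 4 values with 5-FU lay below both PBS values, so the groups overlapped. In WT it had 34.6 and 32.4 CPM with both drugs and 32.6 and 34.3 CPM with 5-FU, against 30.8 and 31.4 CPM with BMX-001 and 33.3 and 31.9 CPM with PBS. The log2 fold change in WT was 0.07 ± 0.16 from 16 libraries (adjusted p = 0.925) and 0.07 ± 0.07 from 15 (adjusted p = 0.649). The difference between the genotypes in the 5-FU effect on Cd34 was 0.45 ± 0.22 from 16 libraries (adjusted p = 0.689) and 0.24 ± 0.11 from 15 (adjusted p = 0.695), and it was not called. The call of Cd34 in KO held in 6 of 14 fits with a further library left out (adjusted p from 0.0103 to 0.159), and that in the mean of the genotypes in 5 of 14.

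Markers of endothelial cells, which carry CD34, were read beside it. The 8 markers summed to 206 to 363 CPM in KO with 5-FU, against 123 to 316 CPM without it, and 8 of 8 had a positive log2 fold change in 16 libraries (median 0.65) and 7 of 8 in 15 (median 0.38), with 0 called in either. In WT they summed to 231 to 383 CPM with 5-FU, against 157 to 338 CPM without it. The 10 stromal and bone markers summed to 387 to 899 CPM in KO with 5-FU, against 202 to 558 CPM without it. The 8 megakaryocyte markers summed to 383 to 881 CPM in KO with 5-FU, against 142 to 743 CPM without it, with 8 of 8 above 0 on the log2 scale in both fits and 0 called. In KO without 5-FU the lowest sum of each of these lists came from KO BMX-001 replicate 1. The next lowest, all in KO PBS replicate 1, were 179 CPM (endothelial), 217 CPM (stromal and bone) and 308 CPM (megakaryocyte). The 6 granulocyte-precursor markers were above 0 in 6 of 6 in both fits (median 0.40 in 16 libraries and 0.24 in 15), with 0 called in 16 libraries and Ms4a3 called in 15 (0.39 ± 0.10, adjusted p = 0.0472). Their part in the Cd34 result was not tested. Of 10 erythroid markers 4 fell with 5-FU in KO in 16 libraries, and the 10 summed to 46440 to 57346 CPM in KO with 5-FU, against 66588 to 74960 CPM without it, and 40107 to 55629 CPM in WT with 5-FU, against 50443 to 73532 CPM without it.

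Among the factors Myb was the one whose WT values with and without 5-FU did not overlap. It had 178 and 201 CPM in WT with both drugs and 205 and 201 CPM with 5-FU, against 209.9 and 209.5 CPM with BMX-001 and 249.9 and 227 CPM with PBS, and every value with 5-FU lay below every value without it. The same held for 4.49% of the genes tested (860 of 19152), and 0 other members did so. In WT 0 members lay above (3.21% of genes), and in KO 0 lay above (3.49%) and 0 below (4.43%) without overlap. Its log2 fold change in WT was -0.19 ± 0.07 from 16 libraries (adjusted p = 0.376) and -0.19 ± 0.06 from 15 (adjusted p = 0.0884), and in KO -0.07 ± 0.07 (adjusted p = 0.577) and -0.08 ± 0.06 (adjusted p = 0.596). In WT 0 members were called by edgeR in either fit or by DESeq2 (9 of 10 with an adjusted p, beside 1.57% of all genes), beside 0.0574% of all genes in 16 libraries and 1.94% in 15, with 1 member at an unadjusted p under 0.05 in 16 libraries, beside 9.54% of all genes.

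Meis1, the partner of HOX proteins in stem cells, had 12.8 and 12.3 CPM in WT with 5-FU, against 11.0 and 6.71 CPM in WT with PBS. In KO it had 11.3 and 12.9 CPM with 5-FU, against 8.29 and 8.81 CPM with PBS. The 2 PBS libraries in WT differed more from each other than the 2 5-FU libraries did. The log2 fold change was 0.50 ± 0.20 in WT (adjusted p = 0.27) and 0.50 ± 0.20 in KO (adjusted p = 0.441) from 16 libraries, and 0.50 ± 0.18 (adjusted p = 0.105) in WT and 0.50 ± 0.18 (adjusted p = 0.175) in KO from 15. With BMX-001 and 5-FU it had 9.77 and 10.4 CPM in KO and 8.30 and 10.2 CPM in WT. In 5-FU against PBS 0 members were called in WT, beside 0.00522% of all genes, and 0 in KO, beside 0.454%, with 2 members in WT and 1 in KO at an unadjusted p under 0.05 (14.4% and 9.42% of all genes) and 0 called by DESeq2 (3.22% of all genes in WT and 2.25% in KO). In 15 libraries 0 were called as well, beside 6.87% of all genes in WT and 2.82% in KO.

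Hlf had 8.88 and 8.04 CPM in KO with both drugs and 8.50 and 8.97 CPM with 5-FU, against 5.15 and 8.64 CPM with BMX-001 and 7.02 and 7.78 CPM with PBS. In WT it had 7.16 and 7.07 CPM with both drugs and 8.49 and 8.08 CPM with 5-FU, against 5.95 and 5.71 CPM with BMX-001 and 7.74 and 5.38 CPM with PBS. The values with and without 5-FU overlapped in both genotypes. Its log2 fold change as the mean of the genotypes was 0.29 ± 0.11 from 16 libraries (adjusted p = 0.197) and 0.21 ± 0.09 from 15 (adjusted p = 0.154). Kit had 0.24 ± 0.13 (adjusted p = 0.368) and 0.12 ± 0.05 (adjusted p = 0.159). Flt3 had 0.03 ± 0.08 and -0.02 ± 0.06, and Gata2 -0.01 ± 0.06 and 0.00 ± 0.06, with adjusted p of at least 0.852. In the test of whether the 5-FU effect differed between genotypes 0 members were called by edgeR in either fit, beside 0% of all genes, and 0 had an unadjusted p under 0.05 in 16 libraries, beside 6.79% of all genes. DESeq2 gave an adjusted p to 2 of the 10 in that test, Kit (0.66) and Myb (0.698), and to 4671 genes in all, of which it called 0.578%. Without KO BMX-001 replicate 2, Cd34 and Kit were called in that test, beside 18% of all genes, with the deviating library then alone in its group.

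**Figure D3:**
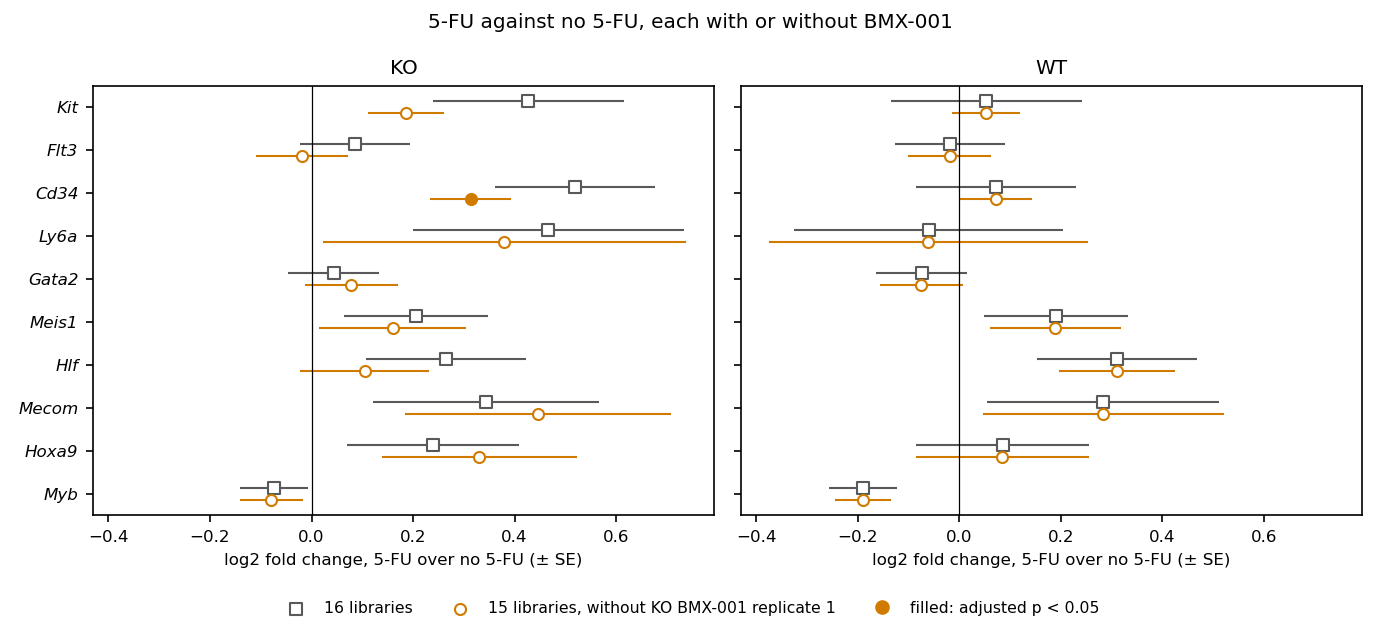
Log2 fold change of 5-FU over no 5-FU (each with or without BMX-001) for each gene, with bars of 1 SE, in KO on the left and WT on the right, from 16 libraries (grey squares) and from the 15 without KO BMX-001 replicate 1 (orange circles, filled where the adjusted p was under 0.05). Cd34 in KO stands at 0.52 and 0.31 in the 2 fits and is the filled point, and Kit in KO stands at 0.43 and 0.19.

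BMX-001 was compared with PBS, and with 5-FU present in both arms. In KO the deviating library belongs to the BMX-001 group, and the values of Kit, Cd34, Flt3 and Ly6a were further below 0 with it than without it. From 16 libraries the log2 value of Kit was -0.68 ± 0.27 (adjusted p = 0.126), of Cd34 -0.68 ± 0.22 (adjusted p = 0.0993), of Flt3 -0.55 ± 0.15 (adjusted p = 0.0873) and of Ly6a -0.69 ± 0.38 (adjusted p = 0.23). Without replicate 1 they were -0.20 ± 0.12 for Kit, -0.27 ± 0.12 for Cd34, -0.34 ± 0.14 for Flt3 and -0.52 ± 0.56 for Ly6a, with adjusted p of at least 0.536 and the remaining library taken to vary like those of the other groups. For Hoxa9 (-0.50 and -0.68), Mecom (-0.28 and -0.49) and Gata2 (-0.27 and -0.35) the value from 15 libraries, given second, was the one further below 0. edgeR called 0 members, beside 0.00522% of all genes in 16 libraries and 0% in 15, with 3 at an unadjusted p under 0.05 in 16 libraries (30.6% of all genes), and DESeq2 called Cd34 (adjusted p = 0.0429) and Flt3 (adjusted p = 0.0257), beside 10.9% of all genes.

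In WT no member was called for BMX-001 against PBS by either tool, beside 0% of all genes in edgeR and 0.00522% in DESeq2, and 1 had an unadjusted p under 0.05, beside 5.1% of all genes. That was Gata2, a factor of stem cells and mast cells, with 21.6 and 18.7 CPM under BMX-001, against 23.2 and 26.4 CPM under PBS (log2 fold change -0.30 ± 0.13, adjusted p = 0.961). Mecom had 0.482 and 0.580 CPM under BMX-001, against 0.666 and 0.842 CPM under PBS (-0.50 ± 0.33, adjusted p = 0.997). With 5-FU in both arms 0 members were called by either tool in WT or in KO, beside 0% of all genes in both by edgeR (0.00508% in KO in 15 libraries) and, by DESeq2, 0% in WT and 0.0313% in KO, with 1 and 0 members at an unadjusted p under 0.05 (3.93% and 2.61% of all genes). The one in WT was Meis1, with 8.30 and 10.2 CPM under both drugs, against 12.8 and 12.3 CPM under 5-FU (-0.44 ± 0.20, adjusted p = 0.998). Ly6a in KO had 13.0 and 10.7 CPM under both drugs, against 22.0 and 8.97 CPM under 5-FU, and its log2 fold change of -0.39 ± 0.37 was 0.39 without KO 5-FU replicate 1, the library with the highest Ly6a level of all.

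Other genes of stem cells and of receptor signalling were listed by role. Of 18 further surface genes and cytokine receptors, 0 were called between genotypes in 16 libraries (median log2 fold change -0.17, against 0.00 over all genes). In 15 libraries 2 rose in KO, Csf2rb (0.25 ± 0.04, adjusted p = 0.0126) and Csf2ra (0.23 ± 0.05, adjusted p = 0.0374), the shared and specific chains of the GM-CSF receptor. Of the 18 genes 6 had values above 0 in that fit and 12 below 0 (median -0.07). Of 27 further transcription factor genes, 0 were called in 16 libraries (median log2 fold change -0.06). Of 16 genes of KIT and FLT3 ligand and signal pathways, 0 were called in 16 libraries. In 15 libraries 1 rose, Gab2 (0.25 ± 0.05, adjusted p = 0.0277), an adaptor below KIT, while 5 had values above 0 and 11 below 0 (median -0.04). The marker genes of the most immature stem cells were low in whole marrow, with 0.182 to 0.835 CPM for Procr, 0.368 to 2.08 CPM for Fgd5 and 2.26 to 14.1 CPM for Slamf1 over 16 libraries.

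With 5-FU, as the mean of the genotypes, 1 of the 18 surface genes fell in 16 libraries, Cxcr4 (-0.27 ± 0.05, adjusted p = 0.0174), the receptor that holds progenitors in marrow and is also on B cell precursors and neutrophils. Of the 27 factors 3 fell, Sox4 (-0.52 ± 0.10, adjusted p = 0.0162), Trib2 (-0.34 ± 0.08, adjusted p = 0.0437) and Spi1 (-0.21 ± 0.05, adjusted p = 0.0451). Sox4 is needed for early B cells and Spi1 encodes PU.1 of myeloid and B cells. Pro-B and pre-B markers had a sum of 639 to 849.9 CPM in WT with 5-FU, against 843 to 1026 CPM without it, and of 419.8 to 685 CPM in KO with 5-FU, against 523 to 718 CPM without it, with 1 of 10 called, Vpreb3 at -0.65 ± 0.14 (adjusted p = 0.027), and their part in the fall of these genes was not tested. In 15 libraries 4 of the 18 surface genes fell and 0 rose, 5 of the 27 factors fell and 1 rose, and 5 of the 16 signalling genes fell and 0 rose, beside 5.81% of all genes lower and 2.35% higher in that fit. The factor that rose was Bmi1 (0.20 ± 0.05, adjusted p = 0.0305), a chromatin regulator of stem cell self-renewal, and the signalling genes included Inpp5d (-0.18 ± 0.04, adjusted p = 0.0198), which encodes the phosphatase SHIP1. Of 10 interferon response genes 5 fell in both fits, among them Isg15 (-0.85 ± 0.13, adjusted p = 0.00439) and Rsad2 (-0.82 ± 0.09, adjusted p = 0.000308) in 16 libraries.

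**Figure D4:**
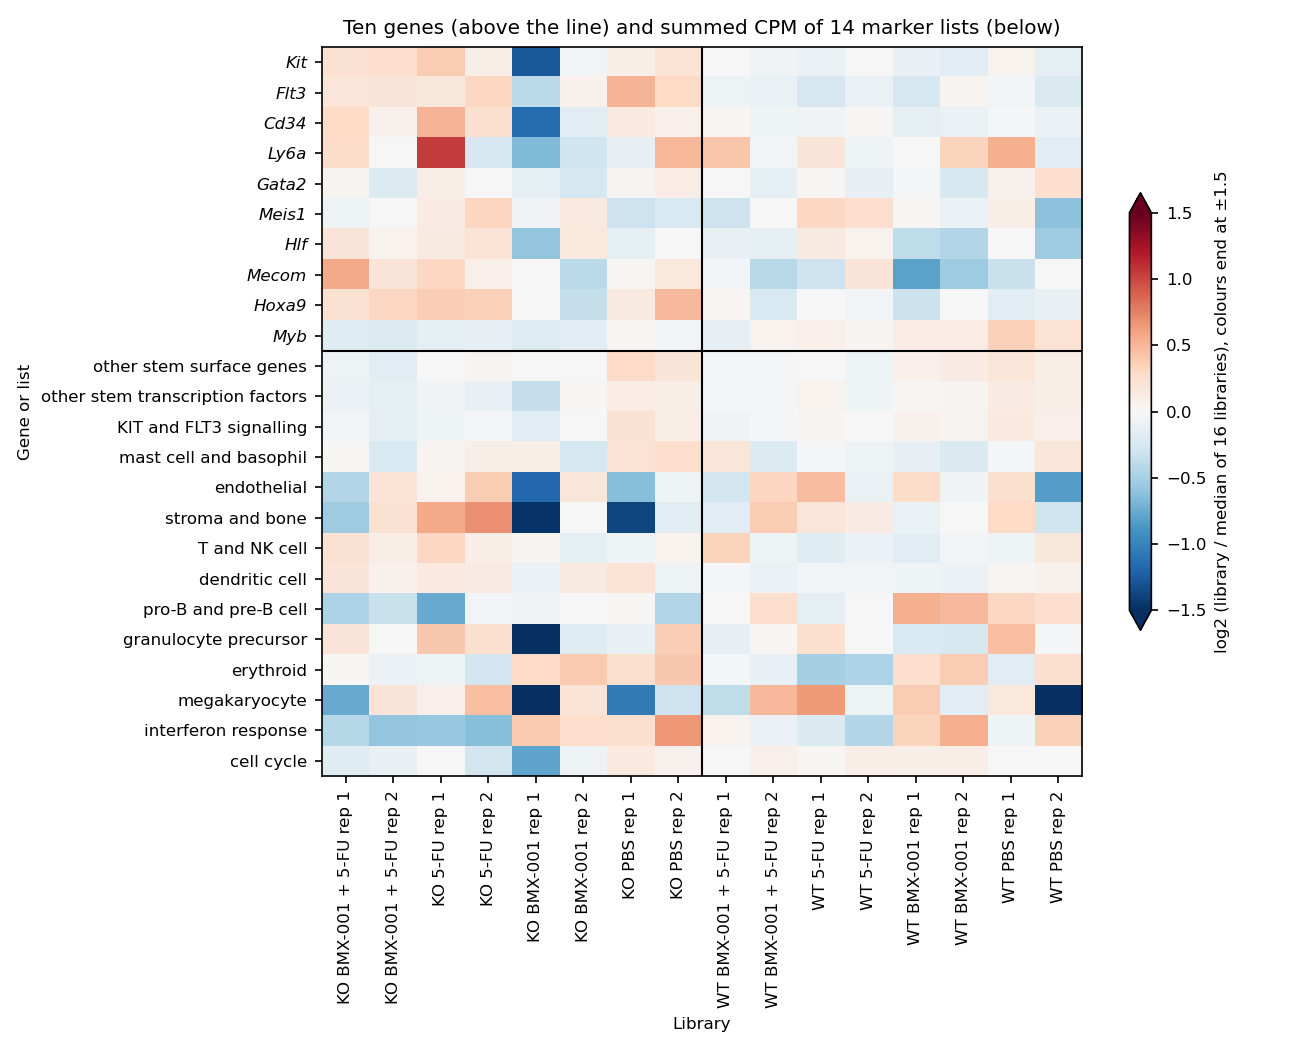
Log2 of each library over the median of the 16 libraries, for the CPM of the 10 genes (above the line) and the summed CPM of 14 marker lists (below it), with KO libraries left of WT and colours ending at ±1.5. KO BMX-001 replicate 1 is blue for Kit and Cd34 and for granulocyte-precursor, megakaryocyte, stromal, endothelial and cell-cycle markers.

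Across the 15 libraries other than the deviating one, the members moved to different degrees together. Kit and Cd34 had Pearson r = 0.85 and Spearman rho = 0.87, Kit and Flt3 r = 0.66 and rho = 0.72, and Mecom and Myb r = -0.51 and rho = -0.63 (n = 15 libraries that share groups and scaling, given as descriptions). Genes among the 3 most like each member, by Pearson r of log2 CPM over the same 15 libraries among genes of at least 1 log2 CPM, were named without regard to function. They were picked for their high r among many genes, so these r values do not measure a link to the member. For Kit they were Nat10 (r = 0.92) and Mettl13, for Flt3 Klhl5 (r = 0.90), Abhd2 and Mettl8, and for Cd34 Plppr3 (r = 0.93), Thyn1 and Mtap. For Ly6a they were Dap3 (r = 0.92), Usp39 and Eef1g, for Gata2 Preb (r = 0.89), Fam72a and Prdx6, and for Meis1 Sema6d (r = 0.93), Abi2 and Prkg1. For Hlf they were Zmat3 (r = 0.91), Pknox2 and Dcbld2, for Mecom Cd244a (r = 0.91) and Frrs1, for Hoxa9 Maoa (r = 0.88), Ggt5 and Erfe, and for Myb Hspa2 (r = 0.94), Mia3 and Sephs1. With the deviating library added, the r of Preb with Gata2 was 0.14 and that of Cd244a with Mecom 0.50, whereas Mettl13 with Kit had 0.97 and Hspa2 with Myb 0.94.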

How the data were processed

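RNA from whole bone marrow was sequenced in 16 libraries, and the authors deposited raw read counts per gene. Per the submitters' processing notes, the build was GRCm39 and the tools were featureCounts, Salmon 1.4.0, R 4.3.0 with DESeq2 1.38.3, Trim Galore 0.6.4 and FastQC 0.12.1 (no roles stated). No source used here gives the aligner, the annotation or the strand of counting. Totals were 27305707 to 39909188 counts per library.

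Counts were filtered with filterByExpr (19152 of 57132 genes kept), scaled with TMM and fitted as 8 group means with edgeR 4.0.16 (robust quasi-likelihood, 8 residual degrees of freedom, R 4.3.3). The 13 comparisons used Benjamini-Hochberg adjusted p under 0.05 over all genes. Every member is described, likeness partners are the 3 genes of highest Pearson r (predicted, pseudogene and immunoglobulin symbols left out), and of the lists, genes past the threshold and low-level stem markers are named. The members and lists were chosen with earlier results of these data known. The code was tested on simulated data. Alternatives were DESeq2 1.42.0, its size factors in edgeR, no filter, only the compared groups, a replicate block and leaving out libraries. Lengths came from GRCm38 gene models and promoters from RefSeq GRCm38.p6. Some genes of the lists and of the likeness ranking are not reported here.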

Additional observations from a re-analysis of the deposited data

How the results depend on the processing

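In all 16 libraries edgeR called 0 of the 10 genes in each of 13 comparisons, and so it did with DESeq2's size factors. Without the filter on low counts it called 2 for KO against WT over 4 treatments (beside 2.57% of all genes), 3 for 5-FU in KO (5.24%), 2 for 5-FU as the mean of the genotypes (5.04%) and 4 for BMX-001 in KO (10.7%). DESeq2 called 2, 1, 0 and 2 in those comparisons. With only the compared groups in the fit, 1 was called for KO against WT with 5-FU (beside 1.41% of all genes). The cause was not tested.

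Leaving out 1 library, or KO BMX-001 replicate 1 with each other library in turn (chosen after seeing the data), gave 0 to 4 called genes for KO against WT over 4 treatments, 0 to 1 in PBS and 0 to 3 with 5-FU. For the 5-FU comparisons, the interaction and BMX-001 in KO the number called varied as well. Such fits leave a group with a single library. The share of all genes called also varied between them, so these counts of members are not comparable from fit to fit. For BMX-001 in KO members were called only with the deviating library alone in its group. The other 3 BMX-001 comparisons gave 0 throughout. Called genes came without either KO BMX-001 library, and from no other library left out alone. Without replicate 2, Flt3 and Myb were called for KO against WT (beside 22.1% of all genes), and Cd34, Hlf and Kit for 5-FU in KO (29.7%), with the deviating library alone in its group. The log2 fold change for 5-FU against PBS in WT reached 0.91 for Meis1 and 0.63 for Hlf. This was without WT PBS replicate 1 and the deviating library, with the lower WT PBS library alone.

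Among the fold changes followed across these settings, some changed direction. For KO against WT over 4 treatments the direction changed in Kit (log2 fold change -0.10 to 0.25), Cd34 (-0.076 to 0.21), Ly6a (-0.26 to 0.11), Gata2 (-0.068 to 0.0078) and Meis1 (-0.056 to 0.15). It changed for 5-FU as the mean of the genotypes in Flt3 (-0.053 to 0.10), Gata2 (-0.042 to 0.032) and Ly6a (-0.037 to 0.34), for 5-FU in KO in Ly6a (-0.013 to 0.73), and for BMX-001 with 5-FU against 5-FU in KO in Ly6a (-0.91 to 0.40). Other values close to 0 changed sign too with 2 libraries left out, such as Flt3 for 5-FU in KO (-0.072 to 0.038) and Kit for BMX-001 with 5-FU against 5-FU in KO (-0.14 to 0.14). Flt3 and Myb kept their direction for KO against WT in these settings.

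A replicate block called 0 of the 10 genes in each comparison. Same-numbered libraries did not strongly deviate together (r from -0.39 to 0.20 over 28 pairs of groups, 6 above 0.1). These values cannot tell whether same-numbered libraries were handled together. Counting error limits Mecom and Hoxa9, and 2 libraries per group limit all 10.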
